A study of Rattus norvegicus with 6 samples.

Results

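The cytosolic ribosomal protein genes were followed through sperm formation in the rat testis, by germ cell stage and by library. They were taken by name from the rows of the deposited count tables: every row named like a protein of the large (Rpl) or small (Rps) subunit, without the Rps6k kinases and without rows that carry a copy suffix. This gave 79 of 21170 rows, 46 of the large and 33 of the small subunit. The set is partial, since no row was named Rpl7 or Rpl10, for example. It also holds relatives of core genes, such as Rpl3l, Rpl7l1 and Rpl31l4. The study compared testicular tissue of 3 normal SD rats, a laboratory strain, with that of 3 SD rats stressed psychologically by a terrifying sound, and each animal gave 1 single-cell library made with a Singleron kit. The libraries are called control replicates 1 to 3 and stressed replicates 1 to 3, and the sources used here give neither age nor time since the stress. P-values between stressed and control animals measure the spread between these animals. Those between stages measure the spread, over libraries, of the stage differences within a library.

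A ribosome is built from ribosomal RNA and one copy of most ribosomal proteins. The core proteins are encoded by genes scattered over the genome, and several of these lie on the X chromosome. In male meiosis the X chromosome is transcriptionally silenced, and germ cells express autosomal copies that stand in for silenced X-linked genes: Rpl10l for Rpl10 and Rpl39l for Rpl39. Spermatids condense their nucleus and stop transcription while translation of stored messenger RNA goes on. Many ribosomal protein messenger RNAs start with a C followed by a run of pyrimidines, the 5′ terminal oligopyrimidine (TOP) motif, through which their translation is controlled.

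The start regions of 5 members named in the stage results are shown, since they place the TOP motif beside genes that took opposite courses. Sequences are those of RefSeq (assembly GRCr8), 10 bases before to 20 bases from the annotated start, 5′ to 3′ on the gene's strand, and capitals mark the motif.
Rps21, chr3:187724028-187724057, plus strand: agccacttcCTTTCTgtgttctccgtagac
Rps9, chr1:74430418-74430447, minus strand: cggccacgtttCTCTTTgtcacgggcctga
Rps12, chr1:23500065-23500094, plus strand: gaagcccagcagagcgcttaaataccgtca
Rplp1, chr8:71290853-71290882, minus strand: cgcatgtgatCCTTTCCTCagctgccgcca
Rpl31, chr9:49143101-49143130, plus strand: atccctcgcgCCTTTCCTTTCCaacttggg
The motif was searched on the gene's strand as a C with at least 5 further C or T bases, beginning within 5 bases of the annotated start. For Rps21 the run of C and T already begins 5 bases before the start, and capitals mark only the later part of that run. It was found for 32 of the 60 members with a promoter entry, or 53.3%, against 11.2% of all 27457 genes with an entry. No such run stands in the Rps12 window, which says only that these letters are not there.

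Libraries held 409 to 2506 cells and 16756543 to 114984746 counts, with a median of 27987 to 41632 counts per cell. The sources used here leave unsaid if counts stand for reads or molecules. Cells were clustered without the member genes and named from markers: 1394 cells were spermatocyte-like (in meiosis), 4104 round spermatid-like and 5891 elongating spermatid-like (both haploid), and no cluster was named as a somatic cell type. The summed level of 13 spermatocyte markers was 2638 to 4692 counts per 1000000 counts of the class (CPM) in the spermatocyte-like cells of the 6 libraries and 160 to 224 CPM in their elongating spermatid-like cells. Stressed replicate 1 was the smallest library and gave 25 spermatocyte-like, 101 round and 93 elongating spermatid-like cells. Of its cells, 46.2% fell in clusters that stayed unnamed, led by genes such as Apoe and Fos, against 0.734% to 1.84% in the other libraries. Of its 802 stromal marker counts in spermatocyte-like cells, 786 lay in 2 cells. Its macrophage marker level in spermatocyte-like cells was 616 CPM, against 25.2 to 41.6 CPM elsewhere. Without the 2 cells rich in stromal counts, the members took 2.56% of the counts in its spermatocyte-like cells, in place of 2.81%. Their part in the other results below was not tested, nor was that of the unnamed cells or the macrophage marker RNA. The libraries shared 2 barcodes.

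The member genes took a smaller share of a cell's messages at each later stage. Their share of all counts was 2.06% ± 0.489 (SD, n = 6 libraries) in spermatocyte-like cells, 1.06% ± 0.102 in round spermatid-like cells and 0.684% ± 0.0869 in elongating spermatid-like cells. It was lower in the later stage in 6 of 6 libraries at both steps, 1.93 ± 0.316 times lower at the first step and 1.56 ± 0.0612 times at the second. In counts, a spermatocyte-like cell carried 762 ± 159 member counts (mean of library means), a round spermatid-like cell 428 ± 63.6 and an elongating spermatid-like cell 272 ± 61.2, while the total per cell was 37390, 40612 and 39452. The 22 spermatogonia-like cells, the dividing precursors, held the members at 3.89% of their pooled counts, and no library had more than 10 of these cells. In the elongating spermatid-like cells the genes Tnp1, Tnp2, Prm2 and Prm3, whose products pack sperm DNA, took 6.49% to 8.11% of the counts.

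In spermatocyte-like cells the members took 1.86%, 2.49% and 1.57% of the counts in control replicates 1 to 3. They took 2.81%, 1.997% and 1.66% in stressed replicates 1 to 3. In round spermatid-like cells the shares were 1.08%, 1.21% and 0.961% in the control animals and 1.14%, 0.999% and 0.970% in the stressed animals. In elongating spermatid-like cells they were 0.687%, 0.794% and 0.593%, and 0.779%, 0.649% and 0.6001%. The groups overlapped at every stage. Control replicate 2 and stressed replicate 1 were the highest libraries at all stages. Control replicate 2 also had the most genes detected per cell, a median of 2772, against 1426 to 1976 in the others, and the part of this in its share was not tested.

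**Figure D1:**
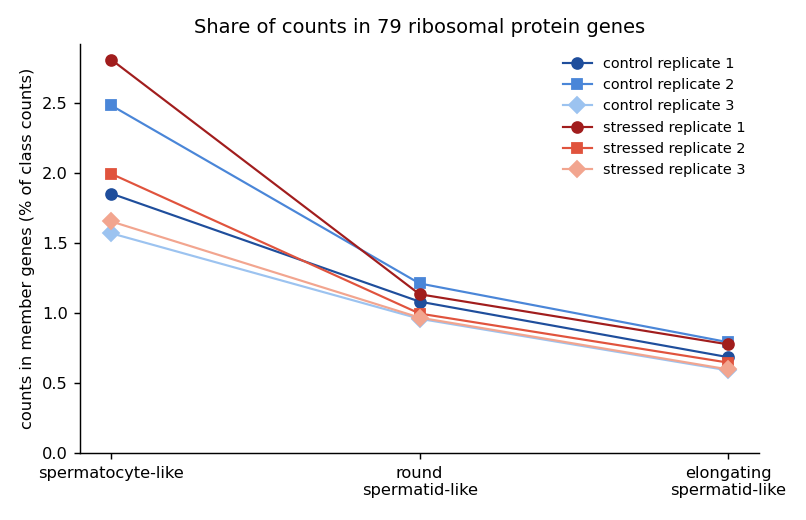
Percent of all counts of a class that fell in the 79 member genes (vertical axis, from 0) in 3 germ cell classes, with 1 line per library (blue, control; red, stressed). All 6 lines go down at both steps, from 1.57% to 2.81% in spermatocyte-like cells to 0.593% to 0.794% in elongating spermatid-like cells, and the blue and red lines overlap.

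The decline was also seen within the classes. The 12 clusters of the 3 classes were put in the order of their class and then of their summed elongating spermatid markers, and only libraries with at least 20 cells of a cluster were used. The first cluster, led by Psma8 and Piwil1, held the members at 2.06% to 3.29% (4 libraries), the second, led by Tpx2, at 1.49% to 2.11% (5 libraries). The last round spermatid-like cluster held them at 0.728% to 0.948% and the last elongating cluster, led by Oaz3 and Smcp, at 0.465% to 0.672%. Each cluster lay below the one before it in all libraries compared, except for the tenth against the ninth and the eleventh against the tenth, where 4 of 5 libraries were lower. Of the 64 members with at least 1000 counts, 60 had their highest pooled CPM in the first cluster. It was highest in the second cluster for 3 (Rplp2, Rps21 and Rps27a) and in the third for 1 (Rpl22l1). Pooled CPM summed all libraries, also those with fewer than 20 cells of a cluster. The share of all genes highest in the first cluster was not computed, so the count does not show a trait of the members.

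**Figure D2:**
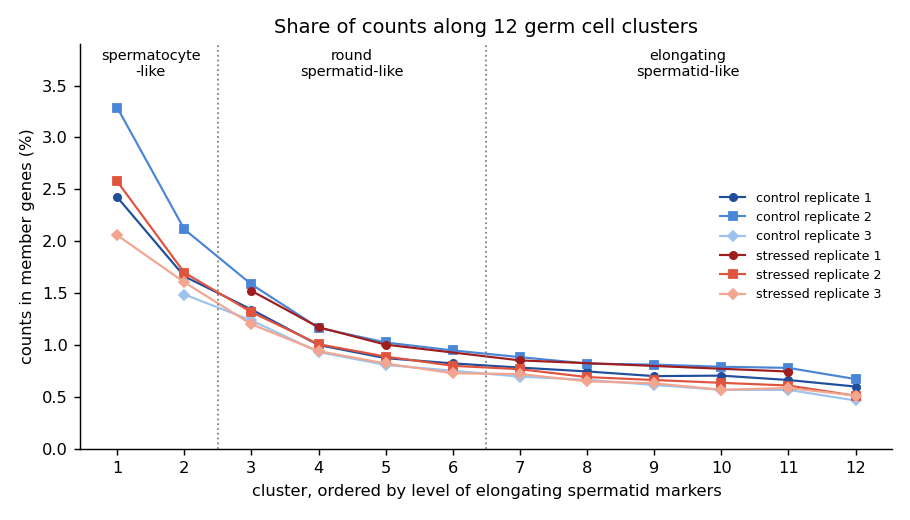
Percent of counts in the 79 member genes (vertical axis, from 0) along 12 germ cell clusters in order (horizontal axis), with 1 line per library and dotted lines between the classes. The share is highest in the first cluster, 2.06% to 3.29%, and lowest in the last, 0.465% to 0.672%, and a library with fewer than 20 cells of a cluster has no point there.

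From spermatocyte-like to round spermatid-like cells members of both subunits fell, the largest falls being those of Rpl19, Rpl7l1, Rpsa, Rpl35 and Rpl26. With edgeR's quasi-likelihood test, library as a block, TMM scaling and Benjamini-Hochberg adjustment, 33 of 69 members tested fell and 2 rose at an adjusted p under 0.05. Of all 12488 genes tested, 27.2% fell and 37.7% rose (30.2% under all 3 scalings tried, against 0 members). The 33 consisted of 22 of 40 large-subunit and 11 of 29 small-subunit members, and all 33 were lower under all 3 scalings tried (27.2% of all genes). The difference between the subunits was not tested. Calls in both directions numbered 22 without stressed replicate 2, in the control libraries only or with no filter on low counts. The median log2 change was -0.29 over the members and 0.13 over all genes. With total counts alone as the scale, 63 of 69 were called lower, against 44.3% of all genes, with medians of -1.01 and -0.57.

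Rpsa, a small-subunit protein also known as the laminin receptor precursor, had 117, 245 and 48.2 CPM in the spermatocyte-like cells of the controls and 261, 114 and 87.5 CPM in those of the stressed animals. Its round spermatid-like values were 7.03, 8.08 and 1.75 CPM and 4.18, 4.06 and 3.87 CPM. Every round value lay below every spermatocyte-like value, and Rpsa fell by 4.00 ± 0.39 (SE) on the log2 scale (edgeR, adjusted p = 5.10e-08). Rpl19, a large-subunit protein at the bridge between the subunits, had 12.5 to 176 CPM in spermatocyte-like cells and 0.562 to 3.53 CPM in round ones, and fell by 4.65 ± 0.43 (edgeR, adjusted p = 2.62e-08). In pooled CPM it went from 180 in the first spermatocyte-like cluster to 6.84 in the second.

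The other largest falls were those of Rpl7l1, a relative of Rpl7 (-4.33 ± 0.73), Rpl35, which lies near the exit of the peptide tunnel (-3.65 ± 0.48), and Rpl26, its neighbour there (-3.32 ± 0.47). Each was lower in 6 of 6 libraries, with edgeR adjusted p-values of 4.57e-05, 3.04e-06 and 7.31e-06. Rpl6, Rpl4, Rpl10a, Rpl14 and Rpl7a, named after their values were seen, also fell, with changes of -2.44, -2.32, -2.05, -1.83 and -1.74. Of the members that rose, Rpl22l1, a relative of the RNA-binding Rpl22, did so by 0.71 ± 0.15, and its change was -0.02 with total counts alone.

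From round to elongating spermatid-like cells the members parted. With TMM scaling 40 of 69 members rose and 13 fell (edgeR, adjusted p under 0.05), against 25.2% and 34.6% of all genes. This direction depended on the scale. With total counts alone 2 of 69 were called higher, against 8.56% of all genes, and 46 lower, near the 63.4% of all genes. The median of all genes was then -1.60 in place of -0.27. Relative to the median gene the members stood 0.91 higher with TMM, 0.93 higher with median-ratio scaling and 0.93 higher with total counts alone (log2). Under all 3 scalings 2 members rose, Rps12 and Rplp1 (8.56% of all genes did), and 12 fell (30.6%). These 12 were 5 of 40 large-subunit and 7 of 29 small-subunit members.

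**Figure D3:**
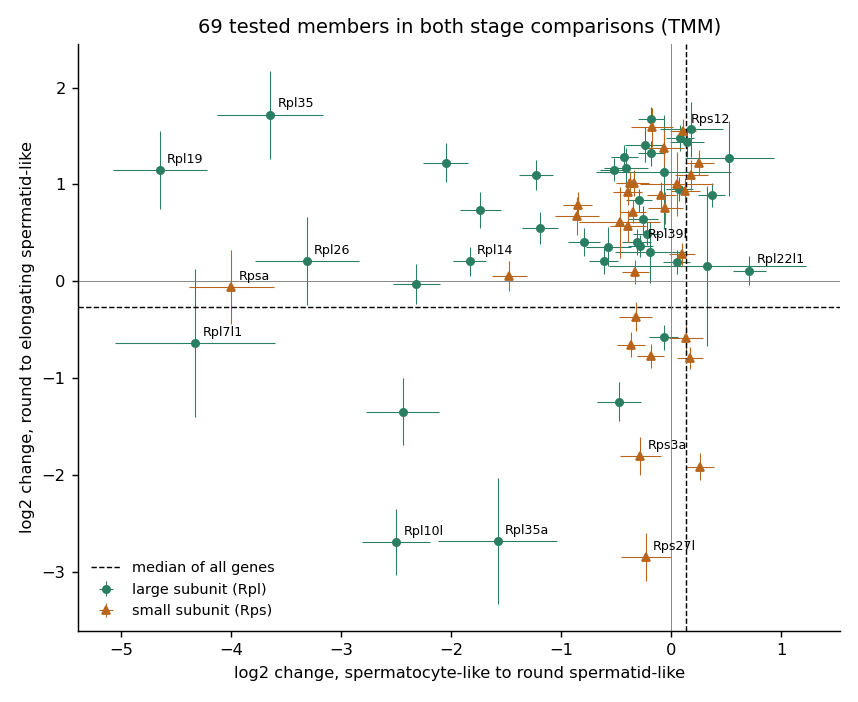
Log2 change from spermatocyte-like to round spermatid-like cells (horizontal axis) and from round to elongating spermatid-like cells (vertical axis) of the 69 members tested, with bars of 1 SE, TMM scaling and dashed lines at the median of all genes. Rpl19, Rpl7l1, Rpsa, Rpl35 and Rpl26 lie far to the left, between -4.65 and -3.32. Rps27l, Rpl10l, Rpl35a and Rps3a lie low, between -2.85 and -1.81. The vertical positions all shift down by about the same amount with total counts alone, so that most members then lie below 0.

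Rps3a, a small-subunit protein, had 125, 167 and 85.6 CPM in the round spermatid-like cells of the controls and 108, 77.6 and 120.4 CPM in those of the stressed animals. Its elongating values were 12.4, 18.8 and 10.8 CPM and 28.5, 9.06 and 6.06 CPM. All elongating values lay below all round values, and Rps3a fell by 1.81 ± 0.19 with TMM (edgeR, adjusted p = 2.56e-07) and by 3.12 with total counts alone. Rps27l, a relative of Rps27, had 48.7 to 64.3 CPM in round and 1.59 to 5.14 CPM in elongating cells, and fell by 2.85 ± 0.25 (edgeR, adjusted p = 1.83e-08). Rpl35a fell by 2.68 ± 0.65 (edgeR, adjusted p = 0.00165), on 91 counts in round and 8 in elongating cells.

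Rps12, a protein of the head of the small subunit, stood higher in elongating cells. It had 440, 353 and 386 CPM in the round cells of the controls and 347, 407 and 413 CPM in those of the stressed animals. Its elongating values were 519, 427 and 456 CPM and 404, 483 and 490 CPM. The ranges overlapped across animals, but each library was higher in its elongating cells, and Rps12 rose by 1.56 ± 0.12 with TMM (edgeR, adjusted p = 3.67e-09) and by 0.24 with total counts alone. The other largest rises with TMM were those of Rpl35 (1.72 ± 0.45), Rplp1 (1.67 ± 0.12), Rps19 (1.59 ± 0.20) and Rpl31l4, by its name a relative of Rpl31 (1.57 ± 0.28). Of these only Rplp1 was also called with total counts alone, at 0.35.

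The 3 proteins of the stalk, which recruits elongation factors to the large subunit, did not change between spermatocyte-like and round spermatid-like cells beyond the test's threshold with TMM (log2 -0.18 ± 0.13 for Rplp0, -0.18 ± 0.12 for Rplp1 and 0.07 ± 0.12 for Rplp2). With median-ratio scaling Rplp0 and Rplp1 were called lower, both at -0.40 (edgeR, adjusted p = 0.00864 and 0.00877), and with total counts alone all 3 were, at -0.90 for Rplp0, -0.90 for Rplp1 and -0.65 for Rplp2. From round to elongating cells all 3 rose with TMM, Rplp0 by 1.32 ± 0.13 and Rplp2 by 0.95 ± 0.13 beside Rplp1, with edgeR adjusted p-values of 6.47e-08, 3.07e-06 and 1.91e-09. With total counts alone their changes were 0.00, -0.35 and 0.35 for Rplp0, Rplp2 and Rplp1. Rplp1 had 139 to 352 CPM in spermatocyte-like cells, 70.8 to 140 CPM in round and 92.3 to 189 CPM in elongating cells. It was higher in elongating than in round cells in 6 of 6 libraries.

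Members also parted between the last round and the last elongating cluster. Pooled CPM in the last elongating cluster was set against that in the last round cluster for the 64 members with at least 1000 counts, without a test. For 11 members the ratio was under 0.1, among them Rpl22l1, Rpl23a, Rpl27, Rpl5, Rps14, Rps21, Rps27l, Rps3a and Rps9. Of all 8553 genes with as many counts, 23.7% were under 0.1. For 24 members the ratio was above 1, against 20.5% of all genes, and the median ratio was 0.711 over the members and 0.316 over all genes. In the 5 libraries with enough cells, 29 members were lower in 5 of 5 (49.7% of all genes) and 8 were higher in 5 of 5 (8.68%): Rpl15, Rpl31, Rpl32, Rplp1, Rps12, Rps19, Rps29 and Rps3.

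Rps3a had 102, 115 and 65.3 CPM in the last round cluster of control replicates 1 to 3 and 51.9 and 61.2 CPM in that of stressed replicates 2 and 3. In the next cluster, the first elongating one, it had 33.5 to 75.2 CPM over 6 libraries, in the cluster after that 3.82 to 17.4 CPM, and in the last 0 to 5.12 CPM. It was lower in each of the first 2 elongating clusters than in the cluster before in all 5 libraries with enough cells. Rps21, another small-subunit protein, had 282 to 357 CPM in the last round cluster, 210 to 263 CPM in the first elongating one and 7.11 to 10.7 CPM in the last. Rpl22l1 had 80.2 to 171 CPM in the last round and 3.62 to 8.02 CPM in the last elongating cluster. Rps12 went the other way, from 295 to 363 CPM to 535 to 655 CPM, and Rplp1 from 58.9 to 108 CPM to 136 to 264 CPM. The TOP motif was found for 6 of the 9 members with a promoter entry among the 13 that fell with TMM between round and elongating cells, and for 19 of 30 among the 40 that rose.

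**Figure D4:**
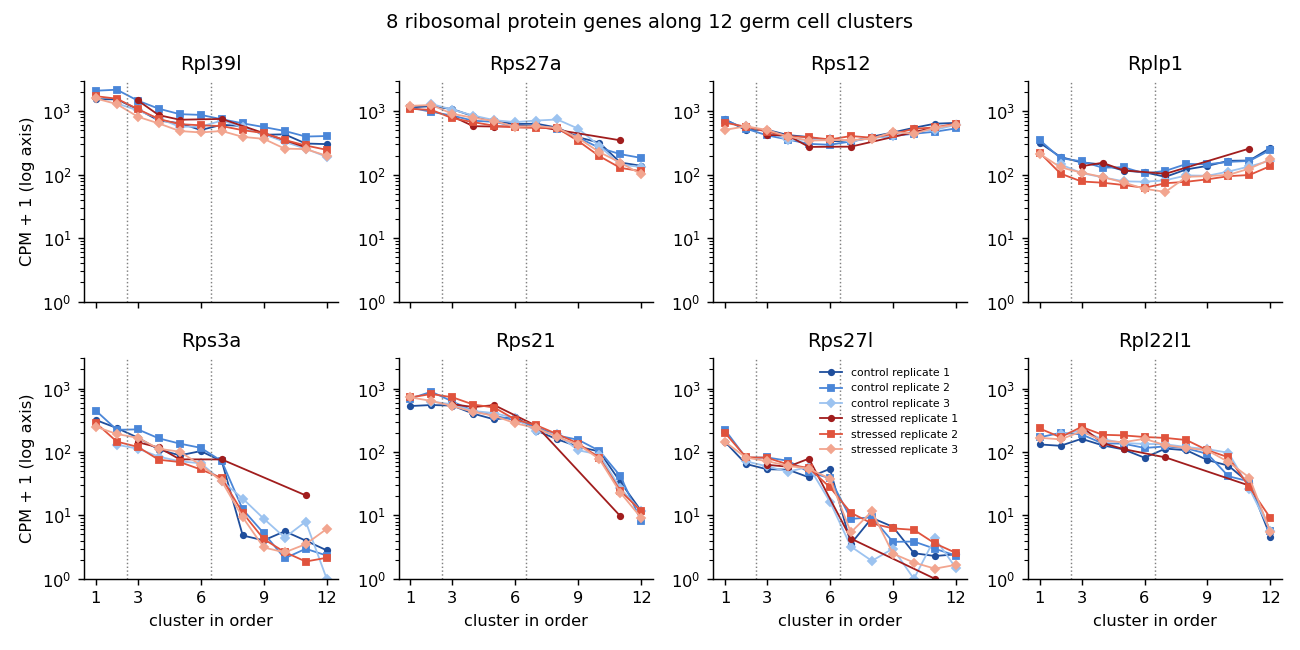
Level of 8 member genes (CPM plus 1, log axis) along the 12 germ cell clusters in order (horizontal axis), with 1 line per library, dotted lines between the classes and lines drawn across clusters with fewer than 20 cells. Rps12 and Rplp1 have their lowest values around the change from round to elongating cells and are higher in the last cluster (535 to 655 CPM and 136 to 264 CPM). Rps3a, Rps21, Rps27l and Rpl22l1 are near 10 CPM or lower at the end.

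Rpl39l, the autosomal stand-in for Rpl39, held the largest count total of the members, 323672 counts, while the X-linked Rpl39 had 16. Counts were not set per length. In spermatocyte-like cells Rpl39l had 1543, 2164 and 1366 CPM in the control animals and 1993, 1631 and 1331 CPM in the stressed animals. In round cells it had 815, 1119 and 771 CPM and 897, 755 and 642 CPM. In elongating cells it had 426, 549 and 404 CPM and 513, 413 and 309 CPM. Each library went down at both steps, and control replicate 2 was the highest at each stage. With TMM Rpl39l fell by 0.28 ± 0.11 at the first step (edgeR, adjusted p = 0.0359) and rose by 0.37 ± 0.11 at the second (edgeR, adjusted p = 0.00904), where total counts alone gave -0.94.

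Rpl10l, the stand-in for Rpl10, was a message of the spermatocyte-like cells. It had 60.3, 65.7 and 55.3 CPM there in the control animals and 105, 71.6 and 74.4 CPM in the stressed animals. Round cells had 5.63 to 9.84 CPM and elongating cells 0 to 0.903 CPM, so the 3 stages did not overlap. Rpl10l fell by 2.501 ± 0.31 (edgeR, adjusted p = 1.21e-06) and then by 2.70 ± 0.34 (edgeR, adjusted p = 1.98e-06), and both falls were called under all 3 scalings. No row was named Rpl10, so the level of Rpl10 itself is not known here.

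The X-linked members by name, Rps4x, Rpl36a and Rpl39, had 28, 367 and 16 counts over all 11744 cells. Rows with a copy suffix held further counts, 413 for Rps4x-2 and 51 for Rpl36a-2. The autosomal Rpl21, Rps6 and Rpl38 also had few counts, 29, 29 and 14. Their copy rows Rpl21-2, Rps6-2 and Rpl38-4, however, held 120702, 64704 and 71546, while each copy row of Rpl39 held 0 or 1. Of the 367 counts of Rpl36a, 70 lay in 3 spermatocyte-like cells of stressed replicate 1, where the gene reached 77.9 CPM against 0 to 0.905 CPM in the other libraries, and 47 of the 70 were in the 2 cells that held nearly all of that class's stromal counts. Rpl3, a core large-subunit protein, had 11258 counts and its relative Rpl3l 7 counts. Rpl3 fell by 1.24 ± 0.20 from round to elongating cells (edgeR, adjusted p = 4.27e-05). Rps27a, which is made as a fusion with ubiquitin, had 1031 to 1293, 624 to 880 and 294 to 471 CPM in the 3 stages in order. Its TMM change from round to elongating cells was 0.28 ± 0.12 (edgeR, adjusted p = 0.0518), where total counts alone gave -1.03.

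Of 8 pairs of a member and its relative, 2 had at least 10 counts of each gene in every library, and the log2 ratio of relative to parent was tested at both stage steps with a 2-sided exact sign-flip permutation test over 6 libraries, 4 tests in all. The ratio of Rps27l to Rps27 changed by -3.85 ± 0.560 (SD, n = 6) from round to elongating cells, from -3.14 to -4.37 in single libraries, with an exact p = 0.0312 and an adjusted p = 0.0625. That of Rpl22l1 to Rpl22 changed by -1.15 ± 0.479 (SD, n = 6), with the same exact p = 0.0312 and adjusted p = 0.0625. Both were lower in 6 of 6 libraries, and 0.0312 is the smallest p that 6 libraries allow, so neither passed 0.05 after adjustment. From spermatocyte-like to round cells the changes were -0.147 ± 0.263 and 0.154 ± 0.664, with exact p = 0.219 and 0.594 (n = 6).

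Genes whose pattern over the 18 sums of a library and a stage was most like that of Rpl10l were MGC105649, Tuba3b, Hsp90b1, Shcbp1l and Zdhhc12, with a Pearson r of log2 CPM from 0.983 to 0.989. For Rpl39l they were 2 other members, Rps10 and Rpl12, then Cenpv, Ran and Dvl1, with r from 0.771 to 0.831. The sums share libraries and stages, so these values are a description.

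Genes that make ribosomes and that work with them were taken from 4 lists. Ribosome biogenesis factors, which assemble the subunits in the nucleolus, were called lower in 27 and higher in 4 of 48 tested at the first step, with a median log2 change of -1.27 (TMM). Over all genes tested 27.2% were lower and 37.7% higher at this step, with a median of 0.13. At the second step 22 were lower and 6 higher, with a median of -0.87, against 34.6% and 25.2% of all genes and their median of -0.27. Npm1, the nucleolar protein nucleophosmin, fell by 1.59 ± 0.15 and by 2.85 ± 0.16 at the 2 steps, Ncl, nucleolin, by 2.92 ± 0.25 at the first, and Gnl2 and Nop10 by 2.88 ± 0.13 and 3.09 ± 0.16 at the second. Utp14a rose by 2.89 ± 0.27 at the first.

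Mitochondrial ribosomal proteins, the counterpart in mitochondria, were taken by name alone (Mrpl or Mrps). It was not checked that each product, such as that of Mrps36, is part of that ribosome. Of 69 tested, 29 were lower and 4 higher at the first step (27.2% and 37.7% of all genes). At the second, 28 were lower and 11 higher (34.6% and 25.2% of all genes). Their medians were -0.48 and -0.66, where those of the cytosolic members were -0.29 and 0.64, and the difference between the lists was not tested. The smallest p-values at the 2 steps were those of Mrps36 (5.01 ± 0.20), Mrps27 (-2.72 ± 0.30) and Mrpl35 (-1.78 ± 0.22), then of Mrpl18 (-3.31 ± 0.14), Mrpl32 (-2.78 ± 0.18) and Mrpl54 (1.82 ± 0.13).

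Elongation and nascent chain factors were higher in 5 and lower in 7 of 18 at the first step (median 0.01), against 37.7% and 27.2% of all genes. Among them Eef1b2 and Gspt1 fell (-2.61 ± 0.16 and -3.88 ± 0.32) and Abce1, the ribosome recycling factor, rose by 2.06 ± 0.20. At the second step 6 were higher and 6 lower (median 0.11), against 25.2% and 34.6% of all genes. Fau, which is made as a fusion with the small-subunit protein Rps30, rose by 1.65 ± 0.12, Eef1g by 2.68 ± 0.16 and Eef2 by 0.95 ± 0.12. With total counts alone these were 0.33, 1.39 and -0.35. Of the quality control and stress list 1 was higher and 3 lower of 11 at the first step (median -0.04). Over all genes 37.7% were higher and 27.2% lower, so only the lower ones were about as frequent. In this list Mdm2, a ubiquitin ligase, rose by 2.08 ± 0.21 and Gcn1 fell by 2.97 ± 0.48. At the second step 3 were higher and 3 lower (median -0.67), shares near the 25.2% and 34.6% of all genes, among them Ltn1 (2.53 ± 0.25), Mdm2 (-2.57 ± 0.21) and Ascc3 (-1.62 ± 0.21).

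No member was called between stressed and control animals. With edgeR's quasi-likelihood test and Benjamini-Hochberg adjustment, 0 of 67 members tested passed in spermatocyte-like cells, 0 of 68 in round spermatid-like cells, 0 of 67 in elongating spermatid-like cells and 0 of 71 in whole-library sums. DESeq2 also called 0 in each. Members with an unadjusted p under 0.05 numbered 0, 0, 2 and 0, against 2.18%, 2.26%, 1.76% and 1.38% of all genes. Of all genes tested in the same order, 0.0%, 0.0164%, 0.00921% and 0.00689% were called, so the members' count was like the background.

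The median log2 change of the members, stressed over control, was 0.19 in spermatocyte-like, 0.06 in round, 0.01 in elongating cells and 0.11 in whole libraries, with medians over all genes of -0.02, 0.00, -0.02 and -0.01. In spermatocyte-like cells 56 of 67 members were above 0. That median was -0.01, with 32 of 67 above 0, without stressed replicate 1, and 0.47 without control replicate 2, the 2 libraries with the highest member share. With 1 library left out in turn the median ranged from -0.04 to 0.17 in round cells, from -0.16 to 0.17 in elongating cells and from -0.03 to 0.28 in whole libraries, in each case lowest without control replicate 3 or stressed replicate 1 and highest without control replicate 2. The median standard error of a member was 0.34, 0.26, 0.32 and 0.34 in the 4 comparisons, and single changes several times as large, given below, were not called either. Groups were apart for 3 members in spermatocyte-like cells, Rpl10l, Rps24 and Rps9, or 4.48%, against 8.06% of all genes. They were apart for 0 in round cells (7.81% of all genes), 0 in elongating cells (6.49%) and 2 in whole libraries, Rps12 and Rps27l (4.91%).

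**Figure D5:**
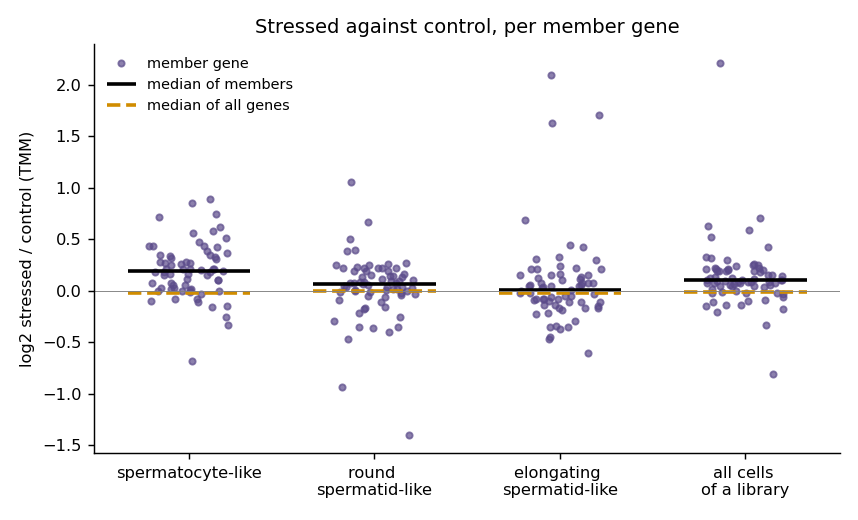
Log2 change, stressed over control, of each member tested (points) in 3 germ cell classes and in whole-library sums (TMM), with the median of the members (black) and of all genes (dashed). The medians of the members are 0.19, 0.06, 0.01 and 0.11 and no point passed the adjusted threshold.

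The members with the smallest p in elongating cells were Rpl35 and Rpsa. Rpl35 had 4.25, 3.48 and 1.75 TMM-scaled CPM in the control animals and 20.2, 1.76 and 9.83 in the stressed animals, a log2 change of 1.70 ± 0.70 (edgeR, adjusted p = 1.000). Rpsa had 1.04, 1.67 and 0.828 and 13.7, 1.82 and 0.597, a change of 2.10 ± 0.94 (edgeR, adjusted p = 1.000). Stressed replicate 1 was the highest library in both, and for Rpsa stressed replicates 2 and 3 lay just above and below the controls. The macrophage marker level in the elongating cells of stressed replicate 1 was 428 CPM, against 48.0 to 74.2 CPM in the other libraries, and its part in these values was not tested.

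In spermatocyte-like cells the smallest p-values belonged to Rpl15 (0.75 ± 0.41), Rps27l (0.62 ± 0.35), Rpl10l (0.51 ± 0.29), Rpl18 (0.57 ± 0.33) and Rps2 (0.58 ± 0.34) among those higher in the stressed animals. Among those lower they belonged to Rpl22 (-0.68 ± 0.99), Rpl12 (-0.25 ± 0.42), Rpl31l4 (-0.33 ± 0.65) and Rpl32 (-0.15 ± 0.43). Rpl15 had 327, 385 and 229 TMM-scaled CPM in the control animals and 926, 376 and 291 in the stressed animals, so 1 library stood apart. Rpl10l had 56.8, 62.3 and 59.0, and 101, 74.9 and 79.8, with no overlap and an edgeR adjusted p = 0.999.

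In round cells Rpl19 had the smallest p, with 1.54, 3.40 and 0.756 TMM-scaled CPM in the control animals and 0.890, 0.613 and 0.716 in the stressed animals (log2 -1.40 ± 0.71, edgeR, adjusted p = 1.000). Rpl13 (-0.36 ± 0.20) was also among those lower, and Rpl18 (0.25 ± 0.19) and Rpl3 (0.39 ± 0.31) led those higher. In whole libraries Rpl36a had 0.244, 1.22 and 0.494, and 8.57, 0.452 and 0.330, a change of 2.22 ± 1.23 (edgeR, adjusted p = 1.000) that rested on stressed replicate 1 and was -0.73 without it. The change with stress was also compared between classes, and 0 of 70 members differed in any of the 3 comparisons (edgeR interaction terms, with 1, 2 and 1 members at an unadjusted p under 0.05). Among the 4 lists of related genes 0 were called between stressed and control animals in any class or in whole libraries.

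Members below the filter on low counts are accounted for as follows. The 8 members tested in no comparison had 7 to 41 counts in all. Several members with few counts have a row of the same name with a copy suffix that held far more: Rpl21 had 29 counts and Rpl21-2 120702, Rps20 65 and Rps20-2 94390, Rpl38 14 and Rpl38-4 71546, Rps6 29 and Rps6-2 64704. There were 33 such copy rows with 399136 counts in all, against 4409831 in the members. With them added the share was 2.23%, 1.15% and 0.751% in the 3 stages in order. Ribosomal protein genes have many near-identical processed copies, and how reads were divided among copies is not known from the sources used here, so the level of any single member is uncertain to that extent.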

How the data were processed

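Single-cell RNA of rat testis was measured in 6 libraries, 1 per animal, with the Singleron GEXSCOPE kit, per the labels' protocols. The authors deposited raw counts per gene and cell, and the sources used here do not name an aligner, a build or a cell filter. Deposited natural log tables were not used. Members, lists and tests were chosen with earlier results of these data known. Cells were clustered with leidenalg 0.10.2 (2000 variable genes without member and mitochondrial genes, 30 components, 15 neighbours, resolution 1) and named from 12 marker lists. Scrublet in scanpy 1.11.5 called 73 cells doublets (0.622%), and these were kept. Counts were summed per library and class (at least 20 cells) and tested with edgeR 4.0.16 in R 4.3.3 (TMM, filterByExpr, robust quasi-likelihood), with Benjamini-Hochberg adjustment over all genes tested. Stage comparisons used library as a block. DESeq2 1.42.0, other scalings, no filter, other clusterings and each library left out were the alternatives. Another left out the 5% of cells of each library with the highest doublet scores, 585 cells in all, whether or not they were called doublets. Paralog ratios used a pseudocount of 0.5. CPM is per 1000000 counts of the class, and where called TMM-scaled it is divided by the TMM factor too. Named genes were the relatives, the stalk, Rpsa and Rps27a, the members with the 5 largest rises and falls moving the same way in 6 libraries per stage step, the 5 smallest p-values per direction per stress comparison, and 3 genes per list and comparison. Not all of the last 2 sets are printed, and some members and listed genes are not reported here. Fits were also run on counts simulated from these same data, and the outcome is not reported here.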

Additional observations from a re-analysis of the deposited data

How the results depend on the processing

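Counts of members called at the first stage step (35 in the main analysis: 2 higher, 33 lower) moved with several settings. Total counts alone gave 63 (0 higher, 63 lower), no filter on low counts 22 (20 lower), control libraries only 22 (4 higher, 18 lower), and median-ratio scaling and DESeq2 1 higher each, with 44 and 45 lower. Leaving out each library in turn gave 22 to 41 calls, 1 to 6 higher and 20 to 35 lower, with the fewest without stressed replicate 2. At the second step (40 higher, 13 lower) total counts alone gave 2 higher and 46 lower. At the first step Rpl22l1 changed sign with total counts alone (-0.019). In the stress comparisons, where no member was called, 8 of the named log2 changes changed sign with 1 library left out. In spermatocyte-like cells Rpl22 ranged from -1.07 to 0.71, Rpl12 from -0.53 to 0.22 (both positive without control replicate 2) and Rpl32 from -0.55 to 0.13 (positive without stressed replicate 2). In elongating cells Rpl26 ranged from -0.15 (without stressed replicate 3) to 2.20, and Rps29 from -0.57 to 0.098 (without control replicate 2). In whole libraries Rpl36a ranged from -0.73 (without stressed replicate 1) to 3.02, Rps27a from -0.25 to 0.0004 (without control replicate 3), and Rpl28 from -0.53 to 0.11 (without control replicate 2). The log2 ratio of Rpl22l1 to Rpl22 at the first step ranged from -0.015 (without control replicate 2; -0.0003 without stressed replicate 2) to 0.32. The causes were not tested.

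The count of members called between stressed and control animals stayed 0 in every alternative run, the replicate block included, which gave 0 in all 4 comparisons. The labels do not say if the replicate numbers pair the animals. Correlations of the deviations of same-numbered libraries were -0.09 to 0.30, and only number 3 was best with its own number in all 3 classes. With 3 animals per group these values cannot decide it. The percent of counts in members stayed within 1 SD of its main value in all alternatives. Stressed replicate 1 had the fewest cells and counts, and no test of depth was run.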
